A study of Mus musculus with 7 samples.

Results

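The genes described here are the mouse matrix metalloproteases (MMPs), the ADAMTS proteases and the tissue inhibitors of metalloproteases (TIMPs). They were chosen by symbol: Mmp followed by digits, or by digits and 1 letter, Adamts followed by digits alone, and Timp1 to Timp4. This gave 46 of the 37620 genes in the count tables, made up of 23 MMP, 19 ADAMTS and 4 TIMP genes. The samples were 7 mouse brain tumours, each profiled by RNA sequencing of total RNA from bulk tissue. GSC1 tumours (n = 4) grew from NSC-derived cells, that is, from the stem cells of a germinal niche of the adult brain called the subventricular zone. They carried lgT/Ras, and GSC2 tumours (n = 3) grew from such cells that carried shp53, Nf1-/- and CDK4. Both kinds of cell were grown for 10 to 15 passages under neural stem cell conditions and then implanted into the brains of nude mice, a strain that lacks T cells but keeps its other host cells. The series calls the tumours independent, but each genotype is 1 line, so p-values measure the spread between tumours and a difference between genotypes cannot be told apart from a difference between 2 lines.

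MMPs are zinc-dependent enzymes that cut proteins of the extracellular matrix and of the cell surface, and most are made as inactive precursors. ADAMTS enzymes are secreted relatives with thrombospondin repeats, several of which cut the chondroitin sulphate proteoglycans that fill the space between brain cells. TIMPs bind the active site of MMPs and block it. Tumour cells, microglia, blood vessel cells and fibroblasts can all make members of these families, and RNA levels do not report the activity of the enzymes.

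The libraries held from 18643155 to 32643408 reads on genes, and all values below are CPM, read counts scaled to library size, listed in order of replicate number. Reads of Sox2, Nes and Olig2, genes often used to mark neural stem cells and progenitors, were present in every tumour. Sox2 was at 70.7 to 199 CPM, Nes at 116 to 662 CPM and Olig2 at 38.1 to 76.2 CPM. Which cells of the bulk tissue made them was not tested. Trp53, the gene that shp53 is named for, was at 221, 236, 77.2 and 84.8 CPM in GSC1 and at 191, 113 and 127 CPM in GSC2, so it was not lower in GSC2 than in every GSC1 tumour, and cells without either genotype were not analysed here. Gene totals do not show the deleted part of Nf1 or the introduced genes. Normal brain RNA differed widely: a brain score, the mean log2 CPM of 24 neuron and mature oligodendrocyte markers, read 6.16, 4.86, 8.47 and 7.74 across the GSC1 tumours, in order of replicate number. Across the GSC2 tumours it read 6.26, 7.67 and 7.50. The choroid plexus score was -0.11, -0.17, 1.64 and 7.69 in the GSC1 tumours and 5.13, 5.98 and 6.60 in the GSC2 tumours. The brain score holds none of the choroid plexus markers, so a comparison at equal brain score does not hold them equal. The fibroblast and meninges score was 4.61, 4.57, 7.25 and 7.10 in the GSC1 tumours and from 5.26 to 5.95 in the GSC2 tumours. The mitosis score was 6.59, 7.001, 4.37 and 4.95 in GSC1 and from 5.87 to 6.78 in GSC2. GSC1 replicates 3 and 4, which stood highest on the brain score, therefore also stood highest in fibroblast markers and lowest in mitosis markers. In GSC1 replicates 3 and 4 and GSC2 replicate 3, long transcripts were low relative to short ones.

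Of the 46 genes, 38 had enough reads to be tested. The other 8 were Adamts13, Adamts19, Mmp1b, Mmp7, Mmp8, Mmp20, Mmp21 and Mmp27, which reached at most 20 reads in any tumour. Mmp20, the enamel protease, and Mmp21 had no read in any of the 7 tumours. Mean levels of 19 genes were above 10 CPM, those of 16 lay from 1 to 10 CPM, and 3 tested genes stayed under 1 CPM. The fold from the lowest to the highest tumour was 1.57 for Timp2, the smallest of the tested genes, and had a median of 6.25.

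**Figure D1:**
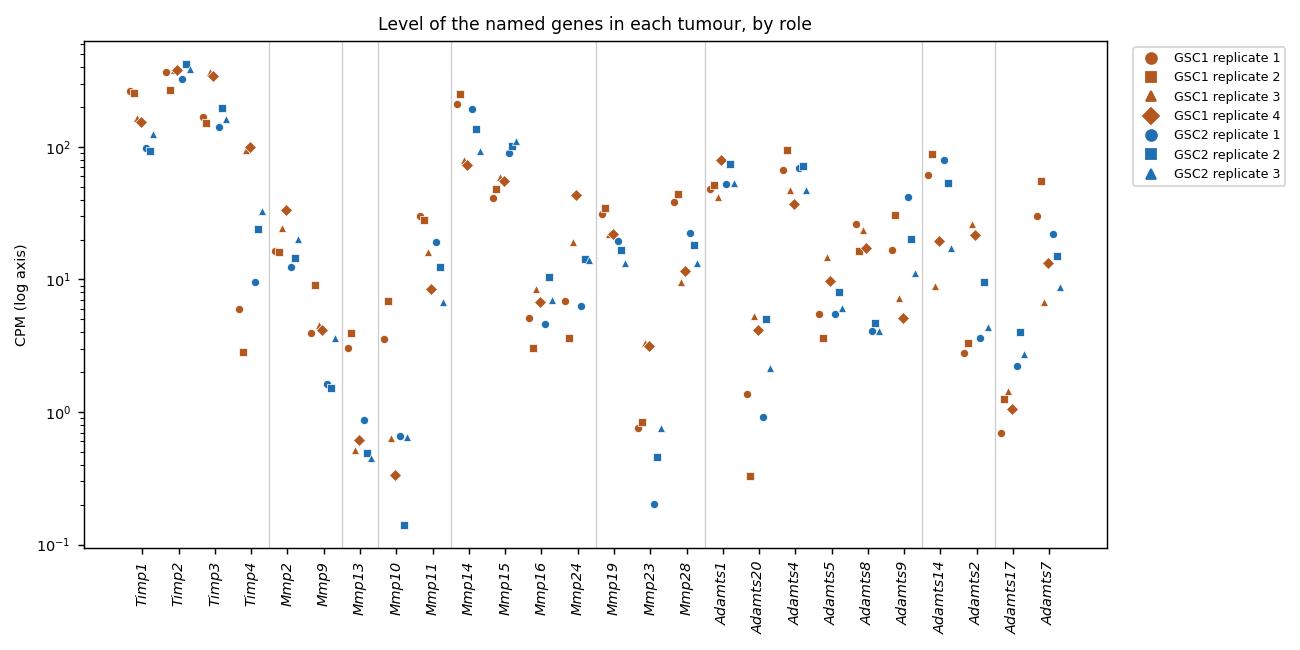
CPM (log axis) of the 26 genes picked by the naming rule in each of the 7 tumours, grouped by role; brown marks are GSC1 and blue marks GSC2, with 1 symbol shape per replicate number. The 4 GSC1 and 3 GSC2 marks of Adamts8 form separate groups, at 16.4 to 26.2 CPM and 4.06 to 4.73 CPM, while those of Mmp14 overlap.

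A group of 10 genes lies side by side on chromosome 9: Mmp7, Mmp20, Mmp27, Mmp8, Mmp10, Mmp1a, Mmp3, Mmp1b, Mmp12 and Mmp13. This cluster holds collagenases, stromelysins and the macrophage elastase, the classical secreted MMPs. The sequence before the start of 5 of these genes is shown because 4 of them were highest in the same 2 tumours. The sequences are the 110 bases before the start of transcription, on the plus strand of GRCm38.p6, from RefSeq, and the capitals mark a match to TGANTCA, the letters bound by the AP-1 family of transcription factors.

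Mmp1a, chr9:7464031-7464140: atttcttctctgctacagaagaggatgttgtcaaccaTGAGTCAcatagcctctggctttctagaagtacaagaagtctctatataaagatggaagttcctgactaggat
Mmp3, chr9:7445712-7445821: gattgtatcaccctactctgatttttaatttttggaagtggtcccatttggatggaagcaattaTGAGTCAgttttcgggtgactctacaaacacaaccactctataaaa
Mmp10, chr9:7502232-7502341: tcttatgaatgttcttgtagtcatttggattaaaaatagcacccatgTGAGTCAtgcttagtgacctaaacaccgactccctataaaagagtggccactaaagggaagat
Mmp12, chr9:7347264-7347373: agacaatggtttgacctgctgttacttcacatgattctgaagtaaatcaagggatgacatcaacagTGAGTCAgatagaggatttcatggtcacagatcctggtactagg
Mmp13, chr9:7272404-7272513: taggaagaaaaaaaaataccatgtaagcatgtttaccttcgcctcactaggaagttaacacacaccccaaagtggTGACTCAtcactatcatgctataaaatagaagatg

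The match began 73 bases before the start in Mmp1a, 46 in Mmp3, 63 in Mmp10, 44 in Mmp12 and 35 in Mmp13. Windows from 250 bases before to 50 bases after the start were searched on both strands. RefSeq windows were matched by symbol for 32 of the 46 genes, and Mmp12 and Mmp7 each had a window with the match and another without. The match was present in 8 of the 10 cluster genes and in 0 of the other 22, against 8.97% of all 27025 genes with a window. The 10 genes are neighbours and include the close copies Mmp1a and Mmp1b, so they are not 10 independent cases. The cluster's windows were also poor in G and C, with a median of 42.8% against 65.3% for the other members and 52.8% for all genes. These matches describe letters and not binding, and their part in the levels was not tested.

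Mmp13, a collagenase, was low in all tumours. Its levels in GSC1 were 3.04, 3.97, 0.517 and 0.619 CPM, and those in GSC2 were 0.865, 0.491 and 0.451 CPM. Mmp10, a stromelysin, stood at 3.56, 6.84, 0.636 and 0.333 CPM in GSC1 and at 0.661, 0.140 and 0.652 CPM in GSC2. GSC1 replicates 1 and 2 were above every other tumour for both genes, and the remaining GSC1 values overlapped those of GSC2. Mmp12, the macrophage elastase, had the same pair of tumours on top, at 19.5 and 20.8 CPM, against 1.31 and 11.6 CPM in GSC1 replicates 3 and 4 and 6.16, 2.17 and 6.87 CPM in GSC2. Mmp1a, an interstitial collagenase, was at 0.985 and 1.87 CPM there and at 0.619 CPM or less in the other 5 tumours. Mmp1a and Mmp1b are close copies, so how reads were divided between them is uncertain. Mmp3, stromelysin 1, went another way, with its highest value of 30.8 CPM in GSC2 replicate 3 and 6.40, 9.23, 0.676 and 4.33 CPM in GSC1. These 2 tumours were both above every other tumour for 11 of the 38 tested members, against 13.6% of all genes tested, a count made after the values had been seen. They were also the tumours with the lowest brain scores. The 11 were Adamts7, Adamts12, Mmp1a, Mmp10, Mmp11, Mmp12, Mmp13, Mmp14, Mmp19, Mmp28 and Timp1. Of these, Mmp1a, Mmp10, Mmp12 and Mmp13 had the TGANTCA match, as did Mmp3, which was highest elsewhere. The match was also found for Mmp1b, Mmp7 and Mmp20, which had 5, 1 and 0 reads over all 7 tumours. Adamts12, Mmp11, Mmp14, Mmp28 and Timp1 had windows without it, and Adamts7 and Mmp19 had no window.

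**Figure D2:**
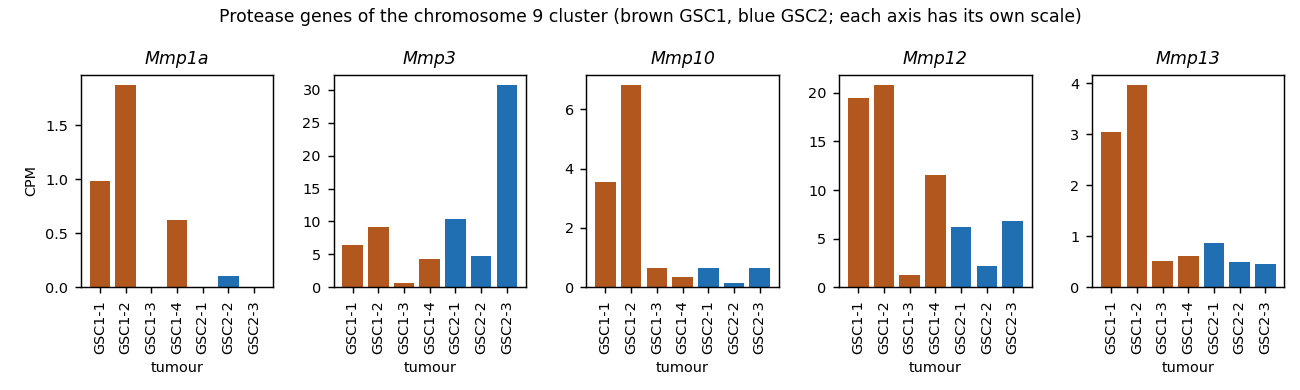
CPM of 5 protease genes of the chromosome 9 cluster in each tumour (brown bars GSC1, blue bars GSC2, each panel with its own axis from 0). Mmp1a, Mmp10, Mmp12 and Mmp13 are highest in GSC1 replicates 1 and 2, and Mmp3 is highest in GSC2 replicate 3 at 30.8 CPM.

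The first comparison asked which of these genes differed between the lines. No gene passed edgeR's quasi-likelihood test with Benjamini-Hochberg adjustment over the 16068 genes tested, so 0 of 38 members were called against 0% of all genes. At an unadjusted p under 0.05 there were 8 of 38 members (21.1%), against 4.21% of all genes. DESeq2 called 3 members, Adamts8, Mmp15 and Timp1, against 1.2% of all genes, and limma-voom called 0. Complete separation of GSC1 from GSC2 tumours was seen for 7 of 38 members (18.4%), against 5.58% of all genes. Of these, 2 were higher in GSC2, against 3.05% of all genes, and 5 were higher in GSC1, against 2.53%. The median log2 fold change, GSC2 minus GSC1, was -0.44 over the 38 members and -0.03 over all genes, with 16 members above 0 and 22 below. In bulk tissue, fewer cells of a type and less RNA per cell cannot be told apart.

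**Figure D3:**
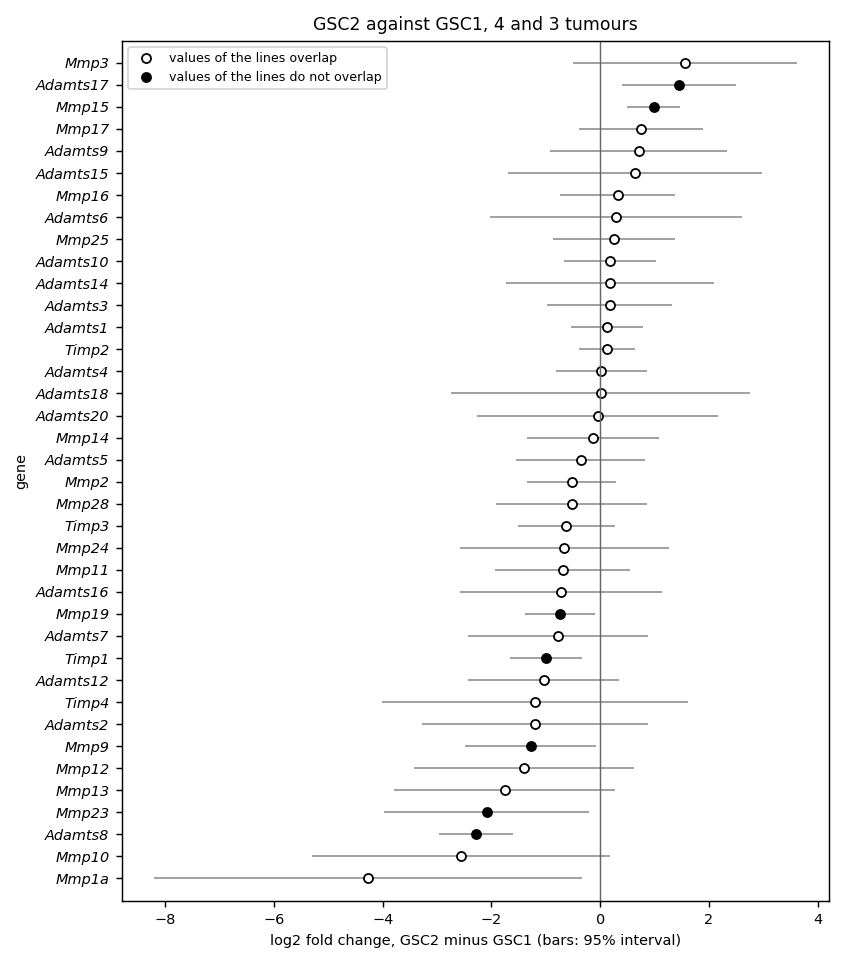
Log2 fold change, GSC2 minus GSC1, of the 38 tested genes with 95% intervals from edgeR; filled points are the 7 genes whose values do not overlap between the lines. Adamts8 lies at -2.28 with the whole interval below 0, and Mmp15 at 0.98.

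Adamts8 and Timp1 were lower in GSC2, and Mmp15 and Adamts17 were higher, in every tumour. Adamts8, a secreted protease with antiangiogenic activity, stood at 26.2, 16.4, 23.5 and 17.3 CPM in GSC1 and at 4.07, 4.73 and 4.06 CPM in GSC2. The GSC1 mean of 20.9 ± 4.76 CPM (SD, n = 4) was 4.87 times the GSC2 mean of 4.29 ± 0.386 CPM (SD, n = 3). The log2 fold change was -2.28 (SE 0.294, edgeR adjusted p = 0.231), and DESeq2 gave an adjusted p of 4.52e-13. A second model in edgeR, which held the brain score equal, gave -2.30 (SE 0.255, adjusted p = 0.0198). Adamts8 was the single member this model called, against 0.51% of all genes, of which 0.156% were higher in GSC1 and 0.355% higher in GSC2. With DESeq2 the same model called 8 members, against 6.87% of all genes: Adamts8, Adamts9, Mmp3, Mmp15, Mmp19, Mmp23, Timp1 and Timp3. The edgeR call of Adamts8 was lost without GSC1 replicate 2 (adjusted p = 0.0771), GSC1 replicate 3 (0.0806) or GSC2 replicate 1 (0.122), with fold changes of -2.39, -2.29 and -2.29. It was also lost without GSC1 replicates 3 and 4 together (adjusted p = 0.263, fold change -2.79), a setting chosen after seeing the data.

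Timp1 is the inhibitor most often found raised in injured or inflamed tissue. It stood at 265, 257, 165 and 155 CPM in GSC1 and at 97.7, 92.4 and 126 CPM in GSC2. All GSC1 values were above all GSC2 values, and GSC1 replicates 1 and 2 were above replicates 3 and 4. The log2 fold change was -1.0 (SE 0.285, edgeR adjusted p = 0.782), and DESeq2's adjusted p was 0.0496. At equal brain score it was -0.90 (adjusted p = 0.0938). Timp1 lies inside Syn1, a neuronal gene on the opposite strand, with which it shares no exon bases.

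Mmp15, a membrane-type MMP anchored in the cell surface, was at 41.0, 48.4, 58.8 and 55.4 CPM in GSC1. In GSC2 it was at 89.4, 101.2 and 111 CPM, so the lowest GSC2 tumour was above the highest GSC1 tumour. The log2 fold change was 0.98 (SE 0.211, edgeR adjusted p = 0.524), with a DESeq2 adjusted p of 0.00302, and at equal brain score it was 0.95 (edgeR adjusted p = 0.0516). Adamts17 went the same way at lower levels, with 0.695, 1.25, 1.43 and 1.05 CPM in GSC1 and 2.24, 4.03 and 2.76 CPM in GSC2. Its log2 fold change was 1.44 (SE 0.449, edgeR adjusted p = 0.926).

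Mmp19 and Mmp23 were the other MMPs without overlap, together with the gelatinase Mmp9, all of them higher in GSC1. Mmp19 was at 31.3, 34.6, 22.0 and 22.0 CPM in GSC1 and at 19.5, 16.7 and 13.3 CPM in GSC2 (log2 fold change -0.74, edgeR unadjusted p = 0.0310). Mmp19 shares 22.3% of its exon bases with Tmem198b on the opposite strand, and the strand setting of the counting is not given in the sources used here. Mmp23 was at 0.753, 0.845, 3.34 and 3.14 CPM in GSC1 and at 0.204, 0.456 and 0.752 CPM in GSC2, so the highest GSC2 tumour was just under the lowest GSC1 tumour (log2 fold change -2.09, edgeR unadjusted p = 0.0342). Mmp9, gelatinase B, was at 3.97, 9.12, 4.57 and 4.14 CPM in GSC1 and at 1.63, 1.51 and 3.61 CPM in GSC2 (log2 fold change -1.28, edgeR unadjusted p = 0.0397). None of the 3 passed the adjusted test. Neutrophils are a known source of Mmp9, and their 8 markers summed to 1.18 to 2.69 CPM in GSC1 and 1.53 to 3.47 CPM in GSC2. The highest value of a single marker was 1.59 CPM. Which cells made Mmp9 was not tested.

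The other gelatinase, Mmp2, and its membrane-bound activator Mmp14 overlapped between the lines. Mmp2 was at 16.3, 16.03, 24.4 and 33.6 CPM in GSC1 and at 12.5, 14.4 and 20.2 CPM in GSC2, with a log2 fold change of -0.52 (95% interval -1.34 to 0.30). Mmp14, also known as MT1-MMP, was at 211, 251, 79.0 and 72.8 CPM in GSC1 and at 194, 135 and 92.4 CPM in GSC2. GSC1 held both the highest and the lowest tumours, and the log2 fold change was -0.13 (95% interval -1.34 to 1.09). Per kb of transcript, Mmp14 was the most abundant MMP at a mean of 45.7 CPM per kb and made up 27.8 to 51.3% of the summed MMP level of a tumour.

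Among the other inhibitors, Timp2 was the steadiest gene of all. It stood at 367, 270.0, 381 and 378 CPM in GSC1 and at 328, 424 and 388 CPM in GSC2, with a log2 fold change of 0.12 (95% interval -0.40 to 0.64). Timp3, the inhibitor that binds to the matrix itself, was at 169, 150.3, 369.6 and 343 CPM in GSC1 and at 143, 198 and 161 CPM in GSC2. Timp4 was at 5.998, 2.83, 95.1 and 100.2 CPM in GSC1 and at 9.62, 24.2 and 32.9 CPM in GSC2. For both Timp3 and Timp4, GSC1 replicates 3 and 4 were the highest tumours and GSC1 replicate 2 was lower than most or all of the rest. The log2 fold changes between lines were -0.63 (95% interval -1.52 to 0.27) and -1.20 (95% interval -4.02 to 1.62). The direction of Timp4 turned with limma-voom (0.10), with the replicate number as a block (0.71), without the 3 libraries low in long transcripts (1.93) and without GSC1 replicates 3 and 4 (2.31). That of Timp3 turned in the last 2 of these, at 0.089 and 0.051.

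Levels per kb allow the 3 families to be set side by side. The TIMPs summed to 436, 396, 386 and 369 CPM per kb in GSC1 and to 231, 265 and 287 in GSC2, so the lines did not overlap. Of these sums, Timp1 gave 300, 290, 187 and 176 in GSC1 and 111, 105 and 142 in GSC2. Timp2, Timp3 and Timp4 each overlapped between the lines. The Timp1 transcript is short, at 883 bases, and long transcripts were low relative to short ones in 3 libraries. In edgeR its log2 fold change was -1.0, against -1.17 with a length offset and -1.46 without those 3 libraries. The part of transcript length in the sums was not tested. The MMPs summed to 134, 151, 76.8 and 80.7 CPM per kb in GSC1 and to 117, 97.3 and 102 in GSC2, with GSC1 on both sides of GSC2. The ADAMTS genes summed to between 33.6 and 72.8 CPM per kb. TIMPs made up 56.5 to 76.7% of the summed level of all members. The ratio of TIMP to MMP sums was 3.26, 2.62, 5.02 and 4.57 in GSC1 and 1.97, 2.73 and 2.81 in GSC2, and no test was made of these sums. Timp1 alone had a mean of 187 CPM per kb, ahead of Timp2 at 97.7 and Timp3 at 46.4.

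**Figure D4:**
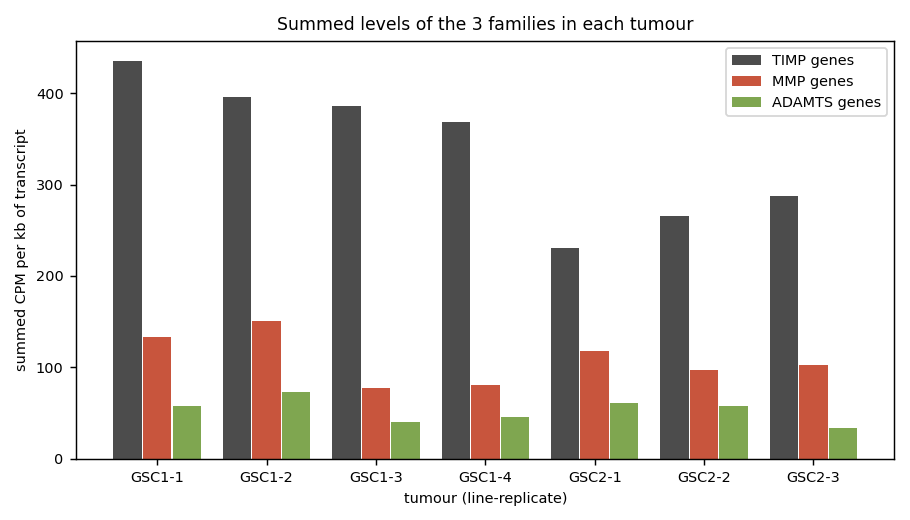
Summed CPM per kb of transcript of the TIMP, MMP and ADAMTS genes in each tumour (bars from 0). The TIMP sum is the highest in every tumour and lies at 369 to 436 in GSC1 and 231 to 287 in GSC2. Timp1 is the only TIMP gene whose own values do not overlap between the lines.

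The second comparison asked which members moved with the normal brain markers within lines. Of the 38 members, 17 (44.7%) had a called slope on the brain score in edgeR, close to the 46.1% of all genes that did. Of these, 8 rose with the score, against 23.3% of all genes, and 9 fell, against 22.8%. A slope is the log2 change for 1 unit of the score. The MMP and ADAMTS genes went both ways: 3 of 17 tested MMPs rose and 5 fell, and 3 of 17 tested ADAMTS genes rose and 4 fell. Of the 4 TIMPs, 2 rose and 0 fell.

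Timp4 had the steepest slope, rising by 1.56 per unit (SE 0.206, edgeR adjusted p = 0.00139). It lies inside Syn2, a neuronal gene on the opposite strand that ran from 25.5 to 232 CPM, and shares 1.53% of its exon bases with it. Timp3 rose by 0.38 (SE 0.0737, adjusted p = 0.00493) and shares 21.3% of its exon bases with Syn3, which reached at most 3.02 CPM. The slopes of Timp1, at -0.19, and Timp2, at 0.14, were not called (edgeR adjusted p = 0.113 and 0.127).

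Among the membrane-type MMPs, Mmp24, a neuronal protease, and Mmp16 rose and Mmp14 fell. Mmp24 was at 6.93, 3.60, 19.0 and 43.6 CPM in GSC1 and at 6.26, 14.4 and 14.1 CPM in GSC2, with a slope of 0.94 (edgeR adjusted p = 0.00753). It shares 13.6% of its exon bases with BC029722 on the opposite strand, which ran from 20.6 to 93.3 CPM. Mmp16 was at 5.10, 3.05, 8.55 and 6.76 CPM in GSC1 and at 4.58, 10.5 and 6.97 CPM in GSC2, with a slope of 0.43 (edgeR adjusted p = 0.0184). Both were lowest in GSC1 replicate 2. Mmp14 had a slope of -0.54 (SE 0.0999, edgeR adjusted p = 0.00434) and was highest in the tumours with the lowest score.

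Mmp28, Mmp10 and Mmp13 also fell, and Mmp23 rose. Mmp28, also called epilysin, was at 38.5, 44.0, 9.58 and 11.6 CPM in GSC1 and at 22.5, 18.2 and 13.3 CPM in GSC2, with a slope of -0.64 (edgeR adjusted p = 0.00404). The slopes of Mmp10 and Mmp13 were -1.07 (edgeR adjusted p = 0.0132) and -0.88 (adjusted p = 0.00983). Mmp23 had a slope of 0.68 (edgeR adjusted p = 0.0329), which lost its call in 9 of 17 alternatives and was 0.31 at its lowest. Mmp19 was called narrowly, with a slope of -0.21 (edgeR adjusted p = 0.0496). It lost the call in 13 of 18 alternatives, among them a brain score scaled over all genes (adjusted p = 0.0558). Mmp11, stromelysin 3, was at 29.9, 27.9, 16.2 and 8.47 CPM in GSC1 and at 19.1, 12.3 and 6.82 CPM in GSC2, with a slope of -0.40 that was not called (edgeR adjusted p = 0.0693).

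The proteoglycan-cutting ADAMTS genes were split in the same way. Adamts4, an aggrecanase, was at 67.2, 94.8, 47.3 and 37.3 CPM in GSC1 and at 69.2, 71.2 and 47.6 CPM in GSC2, and fell by 0.30 per unit (edgeR adjusted p = 0.0286), a call lost in 8 of 18 alternatives. Adamts9 was at 16.6, 30.7, 7.19 and 5.14 CPM in GSC1 and at 41.7, 20.1 and 11.3 CPM in GSC2, with a slope of -0.70 (edgeR adjusted p = 0.00491). Adamts5, the other main aggrecanase, went the opposite way to Adamts4, at 5.51, 3.60, 14.8 and 9.76 CPM in GSC1 and 5.44, 8.10 and 6.12 CPM in GSC2, with a slope of 0.52 (edgeR adjusted p = 0.00572). Adamts20 rose more steeply, by 1.15 per unit (adjusted p = 0.00342), from a low level of 0.331 to 5.33 CPM. Adamts1 was at 41.5 to 79.2 CPM in GSC1 and 52.0 to 74.8 CPM in GSC2 and had a slope of 0.07 that was not called (edgeR adjusted p = 0.631). Adamts8 likewise had no called slope, at 0.07 (edgeR adjusted p = 0.628).

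Among the procollagen N-proteinases, which trim fibrillar procollagens, Adamts2 rose and Adamts14 fell. Adamts2 was at 2.78, 3.35, 26.4 and 21.5 CPM in GSC1 and at 3.61, 9.50 and 4.41 CPM in GSC2, with a slope of 0.92 (edgeR adjusted p = 0.00540). Its highest tumours, GSC1 replicates 3 and 4, were those richest in fibroblast markers, of which 5 of 8 were above all other tumours in both. The same held for 8 of 12 neuron, 5 of 10 astrocyte and 5 of 8 endothelium markers. It held for 2 of 8 pericyte and smooth muscle markers and 1 of 10 microglia and macrophage markers. It held for 0 of the mature oligodendrocyte, choroid plexus, mitosis and neutrophil markers. The 8 fibroblast markers summed to 498 to 2441 CPM in GSC1 and 563 to 706 CPM in GSC2. The part of any of these cell types in the slope of Adamts2 was not tested. Adamts14 was at 61.5, 87.7, 8.98 and 19.4 CPM in GSC1 and at 80.3, 53.2 and 17.2 CPM in GSC2, with a slope of -0.89 (edgeR adjusted p = 0.00586). Adamts7 fell too, from 54.8 CPM in GSC1 replicate 2 to 6.72 CPM in GSC1 replicate 3, with a slope of -0.78 (SE 0.110, edgeR adjusted p = 0.00170).

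**Figure D5:**
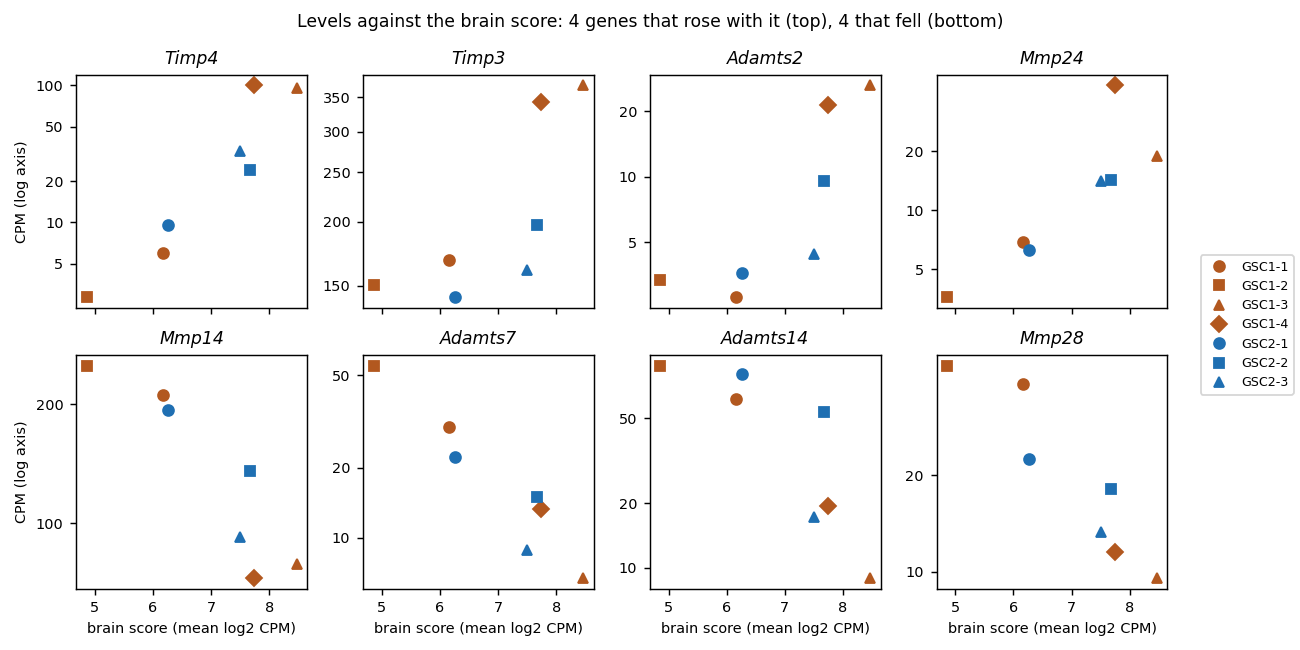
CPM (log axis) of 8 genes against the brain score (mean log2 CPM of 24 markers) in the 7 tumours; brown marks are GSC1 and blue marks GSC2. Timp4, Timp3, Adamts2 and Mmp24 are higher at high scores, and Mmp14, Adamts7, Adamts14 and Mmp28 are lower.

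The calls depended on which tumours were included. Without GSC1 replicate 2, 8 of the 17 members kept their call, the fewest for any single tumour left out. Without GSC1 replicates 3 and 4, an alternative chosen after seeing the data that left 5 tumours, edgeR called 0 of 38 members and 0 genes in all, with 7 members at an unadjusted p under 0.05. In that fit the slope was 1.56 for Adamts20, 1.03 for Timp4, -0.83 for Adamts9, 0.39 for Adamts2 and -0.24 for Mmp28. Without the 3 libraries low in long transcripts, 3 did: Adamts9, Adamts20 and Timp4. No called slope changed sign in any alternative. The fibroblast and mitosis markers moved with the brain score across the same tumours, and their part in the slopes was not tested.

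The related genes of the same pathway numbered 38, and all were tested. Between lines, 0 passed the adjusted test, and 2 had an unadjusted p under 0.05 in edgeR, against 4.21% of all genes. Among them was Adamtsl5 (log2 fold change -1.13, edgeR adjusted p = 0.955). On the brain score 9 rose and 13 fell, against 23.3% and 22.8% of all genes. Of the 11 other inhibitors, receptors and activators, 2 rose and 5 fell. The fallers included the urokinase gene Plau, with a slope of -0.79, its receptor Plaur, with -0.68, and Furin, which activates membrane-type MMPs, with -0.66. The protease inhibitors A2m and Serpine2 rose, with slopes of 1.008 and 0.61. Of the 10 lecticans, link proteins and tenascins, which include ADAMTS substrates, 4 rose, among them Bcan (0.84), and 2 fell, Vcan (-0.85) and Tnc (-0.48). Of 10 ADAM proteases 2 rose and 4 fell, and of 7 ADAMTS-like genes 1 rose and 2 fell.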

How the data were processed

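Per the labels' protocols, total RNA was column-purified (Qiagen) and made into Illumina libraries with NEBNext Ultra reagents. The authors deposited unnormalised counts of reads for each Ensembl gene. The submitters' processing notes list TopHat2 2.0.11, HTSeq and the builds mm9 and dm3, with no role for either build. Whether HTSeq used strand is not given in the sources used here, and reads of genes that overlap on opposite strands may be mixed. Groups and replicate numbers came from the sample titles. Summary lines were left out of library sizes.

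Tests were run on these counts with edgeR 4.0.16 in R 4.3.3 (TMM factors, filterByExpr, robust quasi-likelihood fit) over all 7 tumours, with Benjamini-Hochberg adjustment over 16068 genes and a threshold of 0.05. The first model held the line alone, and the second the line and the brain score (prior count 2). DESeq2 1.42.0, limma 3.58.1 voom, other scalings, filters and omitted tumours were alternatives. CPM was first scaled over every gene and, after those results had been seen, over the tested genes, as in the tests. With the first scaling 16 members had a called slope in place of 17, and 61 genes passed at equal score in place of 82. Transcript lengths were those of the longest GENCODE M21 transcript. Promoter windows and their coordinates were RefSeq's for GRCm38.p6 and were matched by symbol alone. The tests were tried on simulated counts. Those made for the comparisons between lines held no change with the brain score, unlike the tumours. They therefore do not show how these tests perform on tumours that differ in brain content. No 2 libraries agreed within sampling noise.

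The members and gene lists were chosen with earlier results of these data known. Named genes were the TIMPs, Mmp2, Mmp9, Mmp14, members passing any edgeR model, members of at least 1 CPM without overlap between lines, and the 10 highest per kb. Mmp1a, Mmp3 and Mmp12 were added after their values were seen. The values of 1 related gene are not reported here.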

Additional observations from a re-analysis of the deposited data

Results flagged for a closer look

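The named genes were checked for a GSC1 tumour far from the other 3, in 26 groups, of which chance flags about 1 in 20. Mmp9 was at 9.12 CPM in GSC1 replicate 2, with a gap to the next tumour of 0.883 of the range. This passed Dixon's 95% limit for 4 samples. Timp2 was at 270.0 CPM in the same tumour, with a gap of 0.878 of the range. Mmp9 was highest and Timp2 lowest in that tumour, which also had the lowest brain score of the series. The 3 GSC2 tumours were too few for this check.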

How the results depend on the processing

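Between the lines, edgeR called 0 genes, and 1 with no low-count filter, 1 with limma-voom, 192 with DESeq2 (3 members), 55 without the 3 libraries low in long transcripts and 44 without GSC1 replicates 3 and 4, the last chosen after seeing the data. At equal brain score 82 genes and 1 member were called. This became 148 and 2 with no filter, 1082 and 8 with DESeq2, 265 and 2 without the 3 libraries, 210 genes with a length offset, and 0 and 0 without GSC1 replicates 3 and 4. Upper-quartile factors and limma-voom each called 2 members, Adamts8 and Mmp15, the same 2 as with no filter. Without the 3 libraries the 2 were Adamts8 and Timp1. RLE factors, a filter at a mean of 5 CPM, a length offset and the replicate block each called Adamts8 alone. Leaving out 1 tumour at a time gave 1 gene (without GSC2 replicate 1) to 107 genes, and 0 to 1 members. The slope on the brain score was called for 7401 genes and 17 members. Without the 3 libraries it was 1014 and 3, without GSC1 replicates 3 and 4 it was 0 and 0, and leaving out 1 tumour gave 3468 genes (without GSC1 replicate 2) to 7928 genes, and 8 to 22 members. The cause of these shifts was not tested.

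The replicate numbers showed no clear pairing: deviations of tumours with numbers 1, 2 and 3 correlated at 0.58, -0.31 and 0.41. Those of GSC1 replicate 2 and GSC2 replicate 1 correlated at 0.70. Brain scores differ among the same tumours, so these values cannot show whether tumours of the same number share a batch. With the replicate number as a block the slope was called for 1380 genes and 5 members, of which 4 were among the 17. The block gave 0 genes between lines and 111 at equal score.

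Named members kept their direction between lines in 388 comparisons with alternatives, became significant with the same direction in 3, and changed direction in 45. The genes that changed direction had no called difference, which holds for every named gene, since edgeR called none between the lines. With the 3 libraries left out the log2 fold change was -0.21 for Adamts4, 0.089 for Timp3, 1.79 for Adamts20, 0.57 for Adamts5, 0.97 for Mmp24, 1.93 for Timp4, 1.11 for Adamts2 and -0.16 for Adamts14. Without GSC1 replicates 3 and 4 these were -0.39, 0.051, 1.66, 0.51, 1.12, 2.31, 0.93 and -0.59. With the block they were -0.12 for Adamts4, 0.38 for Adamts20, 0.43 for Mmp24 and 0.71 for Timp4. Limma-voom gave 0.022 for Mmp14, 0.42 for Adamts20 and 0.10 for Timp4, and Adamts4 was at -0.0086 with RLE factors, -0.0086 with DESeq2 and -0.094 with a length offset. Leaving out 1 tumour at a time, the range was -0.43 to 0.22 for Mmp14, -0.18 to 0.31 for Adamts4, -0.86 to 0.44 for Adamts20, -0.064 to 0.33 for Adamts1, -0.61 to 0.026 for Adamts5, -0.34 to 0.75 for Adamts14, -0.999 to 0.21 for Mmp24 and -0.020 to 0.57 for Mmp16. Called slopes kept their call in 227 comparisons and lost it in 75, with no change of sign. Genes with few reads, such as Mmp1a, Mmp10, Mmp13 and Mmp23, are limited by depth.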
